A study of Mus musculus with 5 samples.

Results

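Classical monocytes that were not dividing were taken from mouse bone marrow by their own transcripts, counted as unique molecular identifiers (UMIs, 1 for each captured molecule). A cell was kept with at least 1 UMI of Csf1r, the receptor for colony-stimulating factor 1, and at least 2 of F13a1 and Ccr2 together, which encode a coagulation factor subunit and the chemokine receptor that monocytes use to leave the marrow. It also had fewer than 2 UMIs of the proliferation genes Mki67 and Top2a and fewer than 5 of the activation genes Cd14, Cd83, Thbs1 and Nr4a2. UMIs of Ace and Treml4, which mark nonclassical monocytes, and of Siglech, which marks plasmacytoid dendritic cells, had to be 0. The rule took 1323 of 29679 cells that held at least 500 UMIs with at most 10% of them mitochondrial, or 4.46%. The cells were selected on these 12 genes, so the values of those genes are a description and no finding.

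The cells came from 5 C57BL/6J mice, 8 weeks old when bought and not irradiated, each given 1000 BCR-ABL1 pre-B acute lymphoblastic leukemia cells into the tail vein. The mouse called day 0 was killed right after the transfer and so is no mouse without transfer, and the others were killed on days 3, 6, 9 and 12. Marrow flushed from the long bones was pooled with cells freed from the crushed bone by collagenase and DNase I, red cells were lysed, and the suspensions were frozen before 10x Genomics 3' v2 libraries were made. With 1 mouse and 1 library on each day there is no replicate of a day, so no test between days was made and every interval on a day's value covers counting error only. Wherever 5 values follow each other they run from day 0 to day 12, and in that order the libraries held 35329966, 38827241, 40601920, 43554233 and 33425695 UMIs. Each held Xist (768 to 1864 UMIs) and none held Ddx3y, so the 5 mice did not differ in these sex-linked genes. Across the 10 pairs of libraries 513 barcodes of cells were shared where chance would give 476, and 1 barcode of a classical monocyte was shared where chance would give 0.946. Days 3 and 6 stood furthest from chance, with 61 shared barcodes of cells where it would give 39.9, and the source of this was not tested.

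Classical monocytes arise in the marrow from dividing progenitors, enter the blood, and are drawn to inflamed tissue, where they become macrophages or dendritic-like cells. Part of them turn into nonclassical monocytes, which patrol vessel walls, carry more Cx3cr1 and depend on the nuclear receptor Nr4a1. Bacterial products and interferons change their transcription within hours, and immediate early genes such as Fos and Atf3 respond faster still.

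The selected cells carried the transcripts of classical monocytes on every day. Ly6c2, part of the Ly6C surface antigen that defines these cells, stood at 2334, 3661, 2991, 2990 and 2722 CPM (the gene's UMIs scaled to all UMIs of the same cells), against 1012 to 1345 in T cells of the same libraries. Ms4a4c, a 4-span membrane protein of monocytes, had 595, 696, 616, 506 and 575 CPM. Fn1, which encodes fibronectin, had 625, 721, 769, 721 and 747 CPM. None of these 3 genes was used to choose the cells, while F13a1 (592, 634, 726, 617 and 585 CPM) and Ccr2 (712, 793, 908, 698 and 735 CPM) were. Csf1r, also used, stood at 244, 245, 249, 237 and 268 CPM, and Cd14, held down by the rule, at 89.1, 35.3, 52.3, 32.1 and 77.2 CPM.

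A UMI of Fn1 was found in 83.1, 84.9, 87.9, 86.2 and 86.8% of the classical monocytes, beside 3.71, 4.83, 10.0, 8.47 and 5.79% of T cells, which should lack it. One of Ms4a4c was found in 88.5, 89.3, 87.6, 83.3 and 89.5%, beside 12.5 to 17.9% of T cells. The classical monocytes were deeper, with a median of 5746, 7520, 7463.5, 6303 and 5441 UMIs against 2360.5, 3401, 3429, 3021 and 2888.5 in T cells. With every cell thinned to 2000 UMIs, which left out 6, 3, 7, 1 and 2 classical monocytes and 232, 37, 48, 70 and 55 T cells, the share with Fn1 was 67.9, 66.3, 68.4, 69.0 and 67.7% against 3.29 to 5.58%. For Ms4a4c it was 61.6, 65.9, 59.8, 56.1 and 64.5% against 7.17 to 14.4%. At equal depth both markers therefore stood far above the T-cell level in each library. For Ly6c2 the gap was narrower, with 91.6 to 95.2% of thinned classical monocytes, since 64.7 to 78.9% of thinned T cells also held it, and its reads may be shared with the near-identical Ly6c1. On GRCm38 Fn1 lies at chr1:71585520-71653200 on the minus strand, Ly6c2 at chr15:75108158-75111970 on the minus strand and Ms4a4c at chr19:11404770-11427246 on the plus strand.

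Lysozyme led the transcripts of these cells. Lyz2, the lysozyme that digests bacterial cell walls, was the most abundant gene with 3.06% of all UMIs (32460, 31493, 34522, 24850 and 29700 CPM). After Tmsb4x, an actin-binding thymosin with 2.44%, came S100a8 and S100a9, the subunits of calprotectin, with 1.38 and 1.11%, of which a few neutrophil-rich cells described further on held a large part. Tmsb10, Actb, Malat1, Rps29, Rpl41 and Fau completed the 10 most abundant genes. Ribosomal protein genes took 25.3, 24.5, 24.99, 27.1 and 24.0% of UMIs and mitochondrial genes 2.09, 2.52, 2.55, 2.85 and 2.11%, so neither class moved by more than a few points between days.

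The rule found 243, 252, 298, 311 and 219 classical monocytes among 6259, 4870, 6041, 6944 and 5565 cells. Their share was 3.88% at day 0 (Clopper-Pearson 95% interval 3.42 to 4.39), 5.17% at day 3 (4.57 to 5.83), 4.93% at day 6 (4.40 to 5.51), 4.48% at day 9 (4.004 to 4.99) and 3.94% at day 12 (3.44 to 4.48). Days 3 and 6 were the high ones, and their intervals did not reach those of day 0, while the day 12 share lay within the day 0 interval. Those days were also the deepest, and with the gate on cells thinned to 2000 UMIs the shares were 2.37% (1.94 to 2.87), 2.69% (2.20 to 3.25), 2.99% (2.52 to 3.53), 2.53% (2.12 to 2.99) and 2.12% (1.72 to 2.60), with intervals that overlap day 0. Monocytes over the activation limit, called activated here, numbered 118, 54, 81, 54 and 34, or 32.7% (27.9 to 37.8), 17.6% (13.5 to 22.4), 21.4% (17.4 to 25.8), 14.8% (11.3 to 18.9) and 13.4% (9.49 to 18.3) of the non-dividing cells of both kinds. Without the activation limit the share of monocytes would be 5.77, 6.28, 6.27, 5.26 and 4.55%. Cycling monocytes, the cells with 2 or more UMIs of Mki67 and Top2a that met the rule otherwise, numbered 60, 111, 145, 157 and 98. They were 14.3, 26.6, 27.7, 30.1 and 27.9% of the classical, activated and cycling monocytes together. Cells over both the proliferation and the activation limit belonged to none of these groups and were not counted. The share was lowest at day 0, the day with the largest activated share, and the part of the uncounted cells in this was not tested.

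**Figure D1:**
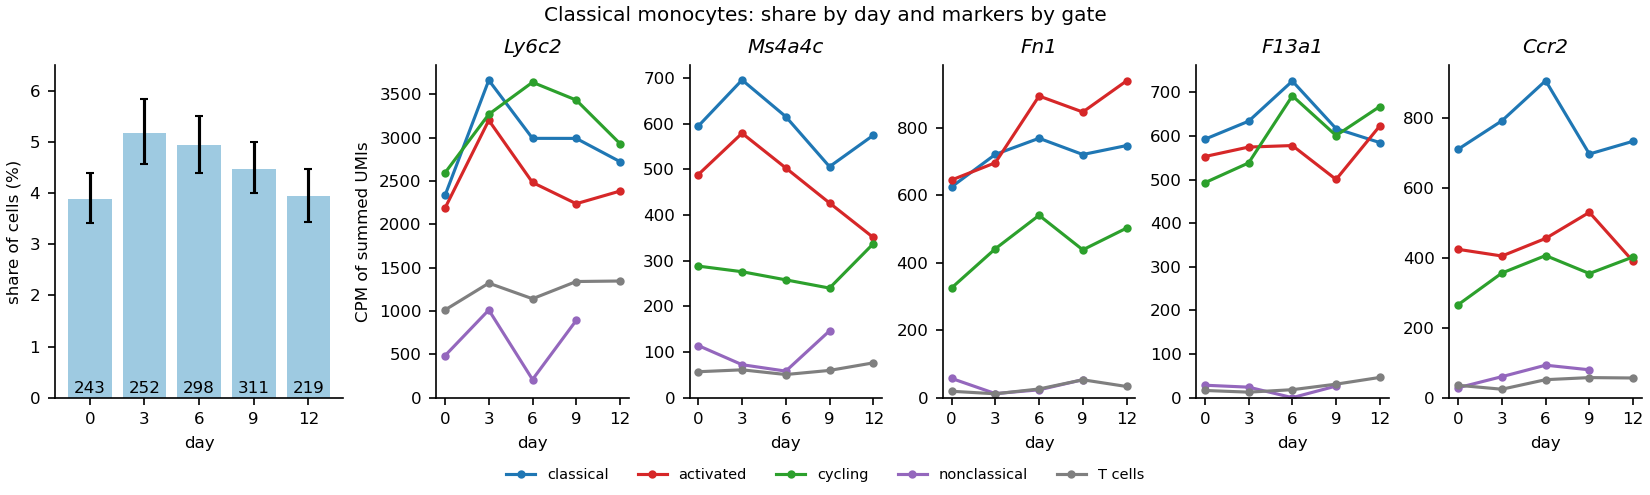
Left, share of cells that were classical monocytes on each day, with Clopper-Pearson 95% intervals as bars and the number of cells at the foot; right, CPM of 5 markers by day in classical, activated, cycling and nonclassical monocytes and T cells (nonclassical monocytes of day 12, 3 cells, are not drawn). F13a1 and Ccr2 were used to choose the cells, and the share lies between 3.88 and 5.17%.

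Cells just outside the limit for F13a1 and Ccr2 had less of the unselected markers Ms4a4c and Fn1 than those just inside on all 5 days. At day 0, 20 classical monocytes held exactly 2 UMIs of F13a1 and Ccr2 and had 1768 CPM of Ly6c2, 360 of Ms4a4c and 360 of Fn1. The 30 cells left out with exactly 1 had 1985 CPM of Ly6c2 but 150 of Ms4a4c and 136 of Fn1. Later days rested on few UMIs. At day 6 Fn1 had 9 UMIs in 10 cells inside and 11 in 28 cells outside (169 against 118 CPM). At day 9 Ms4a4c had 6 UMIs in 5 cells inside and 9 in 29 cells outside (133 against 69.6 CPM). At the activation limit 18 cells inside with exactly 4 UMIs had 439 CPM of Fn1 and 417 of Ms4a4c, and 10 cells outside with exactly 5 had 329 and 414. On the later days 0, 5, 3 and 1 cells stood just outside that limit, too few to compare. Over the 5 days 20, 8, 10, 5 and 10 members stood at the lower limit for F13a1 and Ccr2, and 155, 121, 135, 166 and 133 had a single UMI of Csf1r.

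Several immediate early and inflammatory genes were high at day 0 and day 12 and low between. Atf3, a stress-induced transcription factor of the AP-1 group, stood at 493, 79.2, 94.9, 126 and 353 CPM. Dusp1, the phosphatase that switches off MAP kinases, stood at 1271, 394, 453, 491 and 1085 CPM, and Fos, an AP-1 subunit, at 2869, 1224, 1164, 1393 and 2400. Cxcl2, a chemokine that attracts neutrophils, had 145.5, 21.4, 22.2, 27.5 and 105.5 CPM. In all 4 of these genes each of days 3, 6 and 9 lay below both day 0 and day 12.

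A gene was called past the fold when it had at least 100 UMIs over both libraries and its CPM, with 5 added, differed by a ratio of 2 or more. At day 3 this held for 6 of 3558 genes higher than day 0 (0.169%) and 33 lower (0.927%). At day 6 it held for 7 of 3717 higher (0.188%) and 31 lower (0.834%), and at day 9 for 8 of 3713 higher (0.215%) and 25 lower (0.673%). At day 12 it held for 5 of 2978 higher (0.168%) and 6 lower (0.201%), and without the activation limit for 7 higher and 20 lower. The median gene moved by 0.03, 0.01, -0.01 and 0.01 on the log2 scale, which the scaling to CPM holds near 0. All 4 comparisons share the day 0 mouse, and a feature of that mouse alone would appear in each. Between later days 5 of 4058 genes were higher and 8 lower from day 3 to 6. From day 6 to 9 it was 14 and 4 of 4188, and from day 9 to 12 it was 16 and 10 of 3575.

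The AP-1 and immediate early list, 17 transcription factors and regulators that respond within minutes of a stimulus, was below day 0 in 17 of 17 genes at days 3, 6 and 9 and in 15 of 17 at day 12. Its median log2 difference was -0.79, -0.89, -0.71 and -0.26, and 6, 7, 5 and 0 of its genes were past the fold. Atf3 differed by -2.57, -2.32, -1.93 and -0.48, which at day 3 is a CPM ratio of 0.160 (95% counting interval 0.134 to 0.191). Klf2, a factor that keeps monocytes quiescent, had 913, 395, 388, 380 and 677 CPM, and Junb, an AP-1 subunit, 881, 448, 423, 374 and 719. The list took 1.12, 0.550, 0.537, 0.594 and 0.930% of all UMIs. The same list in T cells had medians of -0.71, -0.27, -0.53 and 0.13 and took 0.454, 0.275, 0.321, 0.288 and 0.418% of their UMIs, and in the RNA of barcodes with at most 100 UMIs, taken as free RNA, the medians were -0.63, -0.38, -0.49 and -0.15. The difference thus moved in part with cells of another type and with free RNA of the same libraries, and their part in it was not tested.

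Inflammatory genes followed the same days. The inflammatory and NF-kB list was below day 0 in 10 of 11 genes at day 3, 11 of 12 at day 6, 10 of 12 at day 9 and 6 of 11 at day 12, with medians of -0.81, -0.57, -0.89 and -0.14, and 4, 4, 5 and 0 genes past the fold. Ccl3, a chemokine that draws leukocytes to inflamed tissue, had 237, 37.8, 50.1, 81.7 and 259 CPM. Ccl2, the ligand of Ccr2, had 177, 27.4, 40.8, 48.8 and 232 CPM, and was found in 38.3% of members at day 0 and 12.3% at day 3. Nlrp3, the sensor of the inflammasome that matures interleukin-1 beta, had 79.3, 20.9, 22.2, 33.9 and 68.0 CPM. Osm, which encodes the cytokine oncostatin M and belongs to the list of secreted ligands, had 62.9, 18.9, 18.6, 28.0 and 58.1 CPM. For all 4 genes the day 12 level was within a ratio of 1.5 of day 0. Trib1, a regulator of protein breakdown, had -1.68 at day 3, Rgcc, a cell cycle regulator, -1.57 at day 3 and -1.66 at day 6, and Ppp1r15a, which restores translation after stress, and Ifrd1 -1.61 and -1.44 at day 9. In T cells the list's medians were -0.32, -0.31, -0.28 and -0.17 and in free RNA -0.53, -0.34, -0.68 and 0.12. Members had been held under 5 UMIs of 4 activation genes on every day, and the share of monocytes over that limit differed by day as given above. Without the limit the list's median at day 12 was -0.68 in place of -0.14.

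Chil3 stood apart from these genes, because it was low at day 12 as well. It encodes the chitinase-like protein Ym1, made by marrow monocytes and neutrophil precursors, and had 2332, 841, 1780, 859 and 971 CPM. Its log2 difference was -1.47, -0.39, -1.44 and -1.26, while T cells differed by 0.43, 0.42, 0.01 and 0.46 and free RNA by -0.04, 0.01, -0.31 and -0.01. The ratio at day 9 was 0.368 (0.348 to 0.390). Pla2g7, which encodes the enzyme that degrades platelet-activating factor, was past the fold at days 9 and 12 (-1.18 and -1.29), with 113, 89.1, 89.2, 47.4 and 43.6 CPM.

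Lpl was the one gene past the fold upward at all 4 later days. It encodes lipoprotein lipase, which frees fatty acids from triglycerides, and had 22.9, 55.3, 87.4, 55.5 and 62.7 CPM. The log2 differences were 1.11, 1.73, 1.12 and 1.28, with ratios of 2.41 (1.63 to 3.63), 3.81 (2.65 to 5.63), 2.42 (1.65 to 3.63) and 2.73 (1.82 to 4.18), against -0.45, -0.04, -0.08 and 1.13 in T cells and 0.52, 1.09, 0.60 and 0.51 in free RNA. It rested on 35, 111, 197, 123 and 82 UMIs in 23, 55, 80, 57 and 48 cells. Of the other genes past the fold upward 4 were so at 2 days and 14 at 1 day, and of those downward 15 at 3 days, 14 at 2 days and 22 at 1 day.

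Cd209a, a lectin of dendritic-like monocytes, was past the fold at days 3 and 6 with 50.5, 124, 125, 76.7 and 91.0 CPM. It was carried by 20, 39, 53, 42 and 28 cells, so few cells made the difference. The dendritic-like list was above day 0 in 4 of 4 genes on each day (medians 0.31, 0.51, 0.39 and 0.49). Its medians were 0.53, 0.60, 1.10 and 0.35 in T cells and 0.75, 0.50, 0.64 and 0.15 in free RNA. Clec4b1, a C-type lectin, was past the fold at day 3 with 26.9, 65.2, 40.4, 40.2 and 45.9 CPM, and Oas3, an interferon-induced sensor of double-stranded RNA, with 15.7, 42.3, 31.5, 30.3 and 24.5 CPM. At day 6 Ifit1 (1.04) and Ly6i (1.23) were past the fold, both members of families with near-identical copies. Ccl5, a chemokine for T cells, was past the fold at days 6 and 9 (1.16 and 1.49) with 52 of 173 and 42 of 215 UMIs in 1 cell, N4bp1 at day 6 (1.04), and Mmp9, a gelatinase of the neutrophil list, and Gm26532 at day 9 (1.16 and 1.10). At day 12 Iqgap2, a scaffold of the cell skeleton, was highest with 40.0, 59.7, 60.8, 64.6 and 98.6 CPM (1.20), and Dennd5a (1.06) and Gmfb (1.04) were past the fold beside it. Gm5483, a stefin-like gene with near-identical relatives, was past the fold at days 3 and 12 (1.19 and 1.80), and not once neutrophil-rich members were left out. Erdr1 (-1.14) and March5 (-1.01), a mitochondrial ubiquitin ligase, were past the fold downward at day 12.

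Interferon-stimulated genes lay above day 0 by small amounts. They did so in 14 of 15 genes at day 3, 16 of 16 at day 6, 12 of 14 at day 9 and 13 of 13 at day 12, with medians of 0.35, 0.32, 0.23 and 0.36, and only Ifit1 at day 6 was past the fold. Isg15, a ubiquitin-like modifier, had 95.7, 165, 127, 130.5 and 144 CPM. Ifit3, which binds foreign RNA with its relatives, had 32.1, 46.3, 66.1, 50.6 and 45.1 CPM. A few interferon-high cells, described further on and chosen by this list, held part of these UMIs. In the other members Ifit3 had 20.3, 32.7, 12.8, 28.7 and 16.1 CPM, below day 0 at days 6 and 12. Isg15 had 74.9, 120, 66.3, 99.9 and 108 CPM there, below day 0 at day 6 only. The medians were -0.05, -0.15, 0.38 and 0.03 in T cells and 0.51, 0.50, 0.41 and 0.05 in free RNA. The list summed to 0.579, 0.706, 0.663, 0.565 and 0.633% of the classical monocytes' UMIs, most of them Ifitm3.

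MHC class II genes, which present peptides to T cells, were highest at day 6 and lowest at day 12 in sums over all members. Most of these UMIs lay in few cells described further on, whose share of the members was highest at day 9 (10.6%). Cd74, the invariant chain, had 1411, 1537, 1997, 1421 and 1159 CPM and H2-Aa 419, 499, 623, 427 and 330. The 6 genes measured had medians of 0.11, 0.45, -0.04 and -0.31, against 0.70, 1.08, 0.56 and -1.08 in T cells, where the summed level was 0.00994 to 0.0581% of UMIs. In free RNA the medians were -0.13, 0.22, -0.14 and -1.75, so the high of day 6 and the low of day 12 were shared with RNA outside the monocytes, and the order of the other days was not.

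Primary granule genes were low at day 6. Mpo, the myeloperoxidase of early granulocytes, had 265, 201, 64.3, 349 and 152 CPM, and Elane, neutrophil elastase, 356.5, 221.5, 108, 347.6 and 180. At day 6 Mpo, Elane, Ctsg and Prtn3 were all past the fold (-1.96, -1.67, -1.44 and -1.17). The list's median that day was -1.56, beside -1.85 in T cells and -0.75 in free RNA. These UMIs came from few cells, as described further on, with up to 194 Mpo UMIs in 1 cell of day 3. Without those granule-rich cells, an alternative added later, the day 6 median lay within a ratio of 2 of day 0. In the other members Mpo had 83.5 CPM at day 0 and 29.4 at day 6, Elane 82.0 and 58.8, and Prtn3 155 and 143.

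The other lists of functions had medians between -0.48 and 0.30 against day 0. The classical identity list had medians of 0.13, 0.07, -0.15 and 0.07, and Chil3 was its only gene past the fold on any day. MHC class I stood at 0.14, -0.04, -0.06 and 0.19, lysosome and cathepsin genes at 0.15, 0.15, -0.11 and -0.16, Fc receptors at 0.00, 0.01, -0.06 and -0.07 and myeloid transcription factors at -0.09, -0.09, -0.07 and -0.01. Glycolysis went from 0.19 at day 3 to -0.23 at day 12, when 9 of 10 genes were below day 0. Iron handling was below day 0 throughout (-0.27, -0.17, -0.24 and -0.23), and cytokine receptors were above it (0.30, 0.30, 0.26 and 0.05). Chemokine receptors and adhesion genes had 0.07, 0.19, 0.02 and 0.24, and pattern recognition genes -0.09, -0.12, -0.25 and -0.06. Heat shock genes had -0.02, -0.27, 0.02 and -0.03, although Hspa1a, the inducible Hsp70, was past the fold at days 3 and 9 (45.9, 104, 49.2, 101 and 48.2 CPM) with 37 of its 209 day 3 UMIs in 1 cell. Nonclassical genes had 0.07, 0.10, 0.14 and 0.24, S100 genes 0.04, -0.02, -0.03 and 0.25, and cell cycle genes 0.04, -0.32, 0.13 and 0.26. From day 3 to 6 the cell cycle median was -0.44 (12 of 13 below 0). Mcm3, Mcm6 and Rrm2 were past the fold, beside 8 of 4058 lower over all genes. From day 6 to 9 the median was 0.59 (13 of 13 above 0), with Mcm3, Mcm6 and Mcm5 past the fold, beside 14 of 4188 higher. Granule-rich cells described further on, with more Stmn1 of this list (838 against 180 CPM), numbered 5, 2 and 14 on days 3, 6 and 9. The lists of complement, coagulation and matrix, and secreted ligands lay between -0.48 and 0.24 with only Osm and Ccl2 past the fold.

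**Figure D2:**
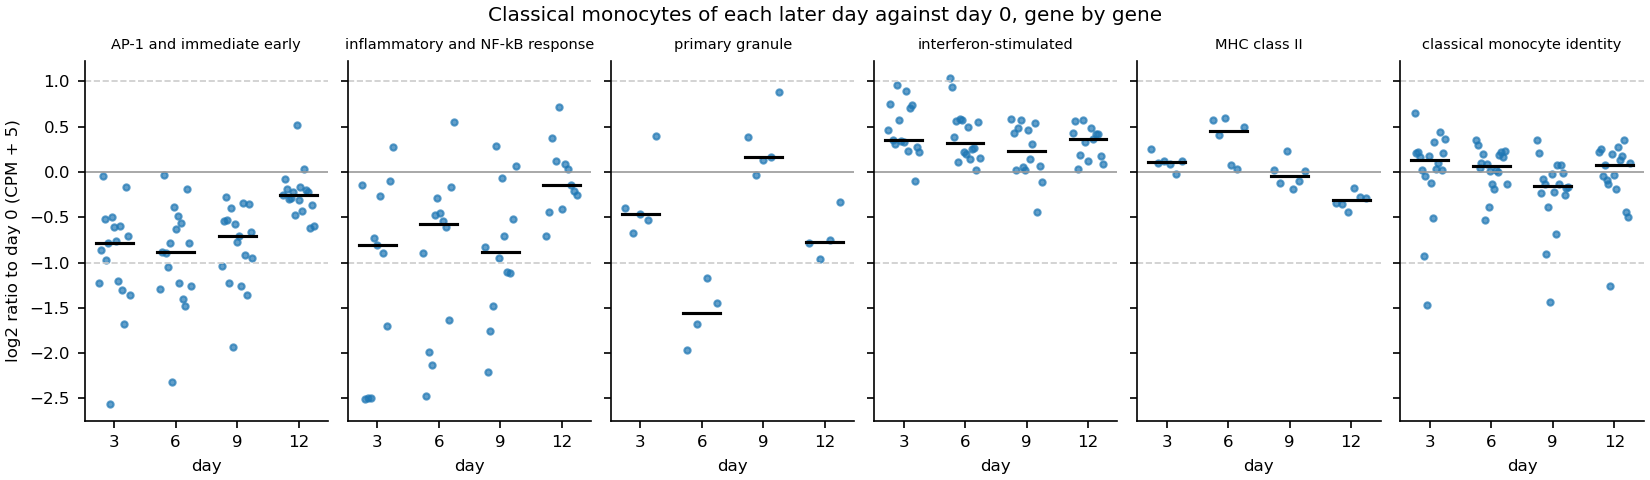
Log2 ratio to day 0 of CPM with 5 added, 1 point for each gene of 6 lists on days 3, 6, 9 and 12, with black bars for medians and dashed lines at a ratio of 2 either way. The AP-1 medians are -0.79, -0.89, -0.71 and -0.26 and those of the identity list lie between -0.15 and 0.13.

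Transcripts of other cell types were present, those of neutrophils in quantity, and also moved between days. Neutrophil markers summed to 2.91, 2.78, 3.53, 3.69 and 3.69% of UMIs with all 10 of 10 genes found and S100a8 the most abundant (12949, 11140, 14092, 14724 and 16749 CPM), beside 11.7, 19.5, 15.4, 13.3 and 22.8% in T cells. B lineage markers summed to 0.0550, 0.0384, 0.0866, 0.0484 and 0.0242% with 8 of 8 found and Ighm the most abundant. Igkc, the kappa light chain, was past the fold downward at days 3 and 12 and upward at day 6 (-1.08, 1.26, 0.31 and -2.26), against -0.22, 2.07, 1.46 and -1.58 in T cells and -0.28, 1.64, 1.03 and -1.27 in free RNA. Cd79a was past the fold downward at days 3 and 9 and Cd79b at day 12. Igha went from 0 UMIs at day 0 to 132 at day 9 and Hbb-bs from 23 to 137. All 142 UMIs of Cxcl12, a stromal chemokine, came from 7 cells of day 9, with 74 in 1 cell. With neutrophil-rich members left out, an alternative added later, 39, 37, 37 and 10 genes were past the fold in place of 39, 38, 33 and 11. The part of neutrophil RNA in the remaining members, and of the other transcripts, was not tested.

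T cell markers (7 of 7 found, Cd3d the most abundant) summed to between 0.000382 and 0.00341% of UMIs, NK cell markers (6 of 6, Nkg7) to between 0.00306 and 0.00722%, and conventional dendritic cell markers (6 of 6, Cd24a) to between 0.00971 and 0.0137%. Plasmacytoid markers had 4 of 5 found, with Tcf4 the most abundant and Siglech at 0 by the rule, and macrophage markers had 11 of 11, with Hmox1 the most abundant and 0.0157 to 0.0230%. Erythroid markers (7 of 7) were highest at day 9 with 0.0110%, stromal markers (5 of 5, Cxcl12) at day 9 with 0.00718%, and stem and progenitor markers (6 of 6, Mpo) at day 9 with 0.0389%. Basophil markers (5 of 5, Mcpt8) reached 0.00244% and platelet markers (4 of 4, Ppbp) 0.000197%.

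Within each mouse the classical monocytes were then set against 3 other monocyte groups taken from the same library, which allowed a test over mice. UMIs were summed per group and library and tested with the quasi-likelihood test of edgeR with the library as a block, and the 12 genes of the rule were left out. The test pools a gene's spread with that of the other genes. With 4 or 5 pairs a very small p-value therefore does not measure that gene's own spread between mice. Each group was chosen by genes of the same cells, so genes that move with those 12 were bound to differ in part. The expression filter let a gene pass through the level of 1 group alone, which favors the direction of that group. List counts and medians are therefore over the genes that either group alone would have let pass, a limit added after the results were seen. Of 4580 such genes 378 were higher and 723 lower than in activated cells, of 6431 against cycling cells 1656 and 1478, and of 2530 against nonclassical cells 241 and 197.

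Against activated monocytes, the classical monocytes had less of the inflammatory list, at 0.156, 0.0756, 0.0811, 0.0816 and 0.145% of UMIs against 0.586, 0.544, 0.534, 0.581 and 0.477%. Il1b, which encodes the cytokine interleukin-1 beta, had 50.5, 45.3, 24.8, 26.2 and 29.0 CPM against 672, 785, 1104, 1043 and 835, a log2 difference of -4.76 (SE 0.17, edgeR adjusted p 1.43e-14, lower in 5 of 5 libraries). All 15 of 15 inflammatory and NF-kB genes were lower, with a median of -1.97 beside -0.03 over all genes. Over all genes tested 566 of 6634 were higher in classical monocytes (8.53%) and 888 lower (13.4%).

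Cxcl2 had 145.5, 21.4, 22.2, 27.5 and 105.5 CPM against 1221, 494, 464, 635 and 396 (-3.66), and so was below the activated cells on every day although its own level moved between days. Nfkbia, the inhibitor that NF-kB induces, differed by -2.31, Tnfaip3, which edits ubiquitin to damp the same pathway, by -2.84, and Tnf by -1.77. Of the 10 largest falls Il1b, Id3 (-4.59), an inhibitor of differentiation factors, and Ier3 (-3.86), an early response gene, would have passed the filter by the classical cells too. The other 7 passed through the activated cells alone: Nr4a3 (-5.25), an orphan nuclear receptor related to the gate gene Nr4a2, Ptgs2 (-4.79), the prostaglandin-forming cyclooxygenase 2, Tnip3 (-4.14), Vegfa (-4.08), Crem (-4.01), Rasgef1b (-3.91) and Clec4n (-3.89).

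In 6 of 6 genes of coagulation and matrix the classical monocytes were lower, with a median of -1.12. F10, coagulation factor X, had 93.1, 87.6, 109, 70.0 and 75.7 CPM against 183, 191, 209, 163 and 124 (-1.09, edgeR adjusted p 4.49e-08, 5 of 5). F5 differed by -1.60, the proteoglycan Vcan by -1.15 and Fn1 by -0.24 (lower in 4 of 5). Thbs1 of this list was a gate gene and had no test. Iron handling genes were lower in 3 of 5 (Fth1, Ftl1 and Hif1a), lysosome and cathepsin genes in 9 of 16 (median -0.24), and secreted ligands in 6 of 12 with Osm at -2.24 and Apoe at -0.65.

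Myeloid transcription factors went both ways, with 2 of 11 higher and 4 lower (median -0.11). Irf8, a factor that commits progenitors to the monocyte and dendritic lines, had 227, 192, 213, 215 and 194 CPM against 109, 43.995, 71.4, 95.1 and 74.2, a difference of 1.32 (SE 0.12, edgeR adjusted p 3.18e-08, 5 of 5). Cebpa, a factor of myeloid commitment, was higher by 1.19, while Zeb2 (-0.38), Cebpb (-1.54), Nr4a1 (-2.36) and Runx1 (-1.39) were lower. Of the nonclassical list Cx3cr1 (0.88) and Spn (1.22) were higher. In that list 2 of 7 genes were higher and 2 lower (Cebpb and Nr4a1), with a median of -0.08. The 10 largest rises all passed the filter through the classical cells alone. Tns4 was the largest (3.12) but rested on 3 UMIs in the activated cells against 125, a ratio of 10.5 with a counting interval of 3.52 to 51.7. After it came Fut7 (2.66), a fucosyltransferase, Rgs3 (2.65), Cbfa2t3 (2.49), a corepressor, Tesk2 (2.46), BC147527 (2.17), Kcne3 (2.09), Rwdd2a (2.08), Gatc (2.03) and Ccdc69 (1.99).

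Interferon-stimulated genes were higher in 5 of 11 and lower in 1, with a median of 0.37, and Ifitm3 was the lower one (-0.14). Ifit3 (1.33), which passed through the classical cells alone, had no UMI in the activated cells of days 9 and 12. Of 18 identity genes 2 were higher, Ly6c2 by 0.15 (edgeR adjusted p 0.0345, 5 of 5) and Ms4a4c by 0.25, and 3 lower, Vcan (-1.15), Emilin2 (-0.82) and Fn1 (-0.24), with a list median of 0.00. Immediate early genes were split, since Jun (0.42) and Klf2 (0.31) were higher and 6 others lower, among them Junb (-0.94) and Atf3 (-0.43). Fos (0.16, edgeR adjusted p 0.148, higher in 4 of 5) and Dusp1 (-0.04, edgeR adjusted p 0.817, lower in 2 of 5) were not called. Of 9 neutrophil markers 0 were called, and cell cycle genes were higher in 6 of 11 and lower in 1.

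The promoters of 2 inflammatory genes that were lower than in activated cells are shown because they carry the short NF-kB motif searched for. In all 9 motifs were searched on both strands in the 300 bases from 250 before to 50 after each start. The search came after the values had been seen, and a match is a description of the letters. The motif GGAATTTCC stands in 104 of 32851 promoters (0.317%) and in 7 of the 17 inflammatory genes in the table (Cxcl2, Cxcl1, Nfkbia, Tnfaip3, Ier3, Icam1 and Cxcl10), while the AP-1 motif TGANTCA stands in 2565 (7.81%) and in 0 of the 15 AP-1 list genes, and the CRE motif TGACGTCA in 588 (1.79%) and in 2 of those 15. The sequences are from RefSeq on GRCm38.p6, 5' to 3' on the gene's strand, with the match in capitals. Cxcl2 is at chr5:90903649-90903948 on the plus strand and Nfkbia at chr12:55492598-55492897 on the minus strand.
Cxcl2: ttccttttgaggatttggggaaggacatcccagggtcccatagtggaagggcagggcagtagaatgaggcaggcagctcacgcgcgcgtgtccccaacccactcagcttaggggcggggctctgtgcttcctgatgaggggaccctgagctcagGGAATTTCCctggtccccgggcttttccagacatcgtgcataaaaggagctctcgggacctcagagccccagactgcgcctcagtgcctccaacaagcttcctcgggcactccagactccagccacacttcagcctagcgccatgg
Nfkbia: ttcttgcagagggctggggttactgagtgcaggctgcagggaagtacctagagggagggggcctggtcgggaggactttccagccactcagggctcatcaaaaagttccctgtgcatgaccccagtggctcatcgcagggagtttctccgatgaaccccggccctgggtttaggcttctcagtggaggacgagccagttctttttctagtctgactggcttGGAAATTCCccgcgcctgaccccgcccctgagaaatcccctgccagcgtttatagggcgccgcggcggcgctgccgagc

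Against cycling monocytes, the classical monocytes held more interferon-stimulated, class II and effector transcripts and fewer of division and of primary granules. Isg15 had 95.7, 165, 127, 130.5 and 144 CPM against 19.3, 41.7, 20.2, 15.5 and 35.5, a difference of 2.45 (SE 0.12, edgeR adjusted p 5.82e-18, higher in 5 of 5). Cd74 had 1411, 1537, 1997, 1421 and 1159 CPM against 166, 271, 327, 183 and 220 (2.74, edgeR adjusted p 4.85e-26, 5 of 5). Elane had 356.5, 221.5, 108, 347.6 and 180 CPM against 854, 760, 951, 1054 and 632 (-1.84, edgeR adjusted p 1.35e-14, lower in 5 of 5). In none of the 3 genes did the values of the groups overlap over the 5 mice. The class II UMIs of the classical monocytes were spread unevenly, with most of them in few cells described further on. Without those cells the classical monocytes had 210, 250, 321, 227 and 154 CPM of Cd74, near the sums over all cycling cells. How class II UMIs were spread over the cycling cells was not measured. Over all genes 1986 of 8253 were higher (24.1%) and 1916 lower (23.2%), so nearly as many moved each way and a call by itself says little here. Of all macrophage markers tested 3 of 3 were higher (median 1.69). Of all neutrophil markers tested 4 of 10 were higher and 0 lower (median 0.12). The part of either cell type in the other differences was not tested.

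All 10 of 10 interferon-stimulated genes were higher, with a median of 1.82 beside 0.02 over all genes. Beside Isg15 they included Irf7 (2.37), which amplifies interferon signaling, and Ifitm3 (1.39). Another 8 genes of the list passed the filter through the classical cells alone, among them Ifit3 (4.39), Ifit1 (3.86), Rsad2 (3.74), the antiviral enzyme viperin, and Slfn5 (3.54), which led the 10 largest rises. So did Prr5l (3.47), Gm4955 (3.42), Sirpb1a (3.37) and Pla2g7 (3.17), while Sirpb1c (3.10) and Apoe (3.13) would have passed by either group. Apoe, the lipid carrier, had 914, 493, 1008, 516 and 601 CPM against 156, 69.1, 88.9, 78.9 and 36.4. Reads of the Sirpb1 and Ifit genes may be split between near-identical copies.

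The promoters of 4 of these interferon-stimulated genes are shown with the core of the interferon-response element, GAAANNGAA, in capitals on either strand. It stands in 2812 of 32851 promoters (8.56%) and in 9 of the 14 list genes in the table (Ifit1, Ifit3, Isg15, Rsad2, Bst2, Gbp2, Slfn5, Cxcl10 and Ifitm3), and overlapping matches run together. They come from the same table and build. Ifit1 is at chr19:34640639-34640938 on the plus strand with 3 matches, Ifit3 at chr19:34583279-34583578 on the plus strand with 3, Isg15 at chr4:156200769-156201068 on the minus strand with 3 and Rsad2 at chr12:26456403-26456702 on the minus strand with 1.
Ifit1: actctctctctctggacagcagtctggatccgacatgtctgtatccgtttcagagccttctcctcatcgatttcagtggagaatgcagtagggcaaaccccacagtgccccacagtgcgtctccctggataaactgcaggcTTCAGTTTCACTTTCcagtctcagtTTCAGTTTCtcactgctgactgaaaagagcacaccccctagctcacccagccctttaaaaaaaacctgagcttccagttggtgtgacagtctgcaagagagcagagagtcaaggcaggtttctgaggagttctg
Ifit3: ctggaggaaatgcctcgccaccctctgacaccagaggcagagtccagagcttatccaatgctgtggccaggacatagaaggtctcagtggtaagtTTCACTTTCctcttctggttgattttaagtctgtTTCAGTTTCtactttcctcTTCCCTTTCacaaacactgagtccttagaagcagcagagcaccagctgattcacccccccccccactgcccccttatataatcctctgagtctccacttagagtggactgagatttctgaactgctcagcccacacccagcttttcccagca
Isg15: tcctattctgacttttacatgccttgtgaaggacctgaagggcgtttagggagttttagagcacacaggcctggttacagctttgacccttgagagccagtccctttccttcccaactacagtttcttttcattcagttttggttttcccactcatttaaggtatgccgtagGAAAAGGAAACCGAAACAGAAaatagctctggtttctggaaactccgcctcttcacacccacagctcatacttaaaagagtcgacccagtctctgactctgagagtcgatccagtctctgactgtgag
Rsad2: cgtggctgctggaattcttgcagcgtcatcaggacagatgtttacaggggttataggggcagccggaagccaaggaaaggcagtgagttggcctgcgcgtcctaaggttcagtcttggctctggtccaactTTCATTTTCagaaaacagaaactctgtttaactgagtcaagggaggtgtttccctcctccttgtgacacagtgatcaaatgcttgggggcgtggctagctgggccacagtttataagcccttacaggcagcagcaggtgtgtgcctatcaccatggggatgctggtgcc

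Class II genes were higher in 6 of 6 with a median of 2.51, H2-Aa by 2.56, as sums over all members. Effector functions followed: 15 of 15 lysosome and cathepsin genes were higher (median 0.64), 4 of 4 Fc receptor genes (0.86, Fcgr1 at 2.13), 8 of 9 pattern recognition genes (0.76), 9 of 10 secreted ligands (0.57) and 8 of 10 chemokine receptors and adhesion genes (0.49). Identity genes were higher in 15 of 17 (0.88). Lyz2 differed by 1.32, Ctss, a cathepsin of antigen processing, by 1.68, Ms4a4c by 1.16 and Fn1 by 0.73. Ly6c2 was not called (-0.06, edgeR adjusted p 0.264, lower in 4 of 5), since it had 2594, 3268, 3638, 3432 and 2930 CPM in the cycling cells. Immediate early genes were higher in 16 of 17 (0.78), with Egr1 lower (-0.58), and inflammatory genes in 12 of 14 (0.63).

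The 5 of 5 primary granule genes were lower (median -1.67), with Mpo at -1.67, Prtn3 at -1.65, Ctsg at -1.91 and Ms4a3 at -1.45. Cd34, an antigen of progenitors, was lower by -1.47 and Cxcr4, the receptor that retains cells in the marrow, by -1.49, with 45.2, 33.8, 38.6, 49.7 and 64.2 CPM against 92.6, 138, 138, 136 and 146. Irf8 was lower by -0.80. Cell cycle genes other than the gate genes were lower in 18 of 18 (-1.80), which the choice of groups by Mki67 and Top2a leads to. The largest falls were Nusap1 (-5.05), BC030867 (-4.96), Hist1h2ap (-4.85), Iqgap3 (-4.75), Ndc80 (-4.54), Pbk (-4.50), Kif11 (-4.47), Cdca2 (-4.44), Plk1 (-4.37) and Sgol2a (-4.35), most of them genes of mitosis, and all but Hist1h2ap passed the filter through the cycling cells alone. The cycling cells were also deeper, with a median of 11910, 14687, 15093, 12503 and 11062 UMIs. Mcpt8, a basophil protease, was called lower (-3.70) from 378 CPM in the cycling cells of day 3 alone, and was higher in 2 of 5 libraries.

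Nonclassical monocytes, with 2 or more UMIs of Ace and Treml4 and fewer than 2 of F13a1 and Ccr2, numbered 10, 14, 25, 18 and 3. Day 12 with 3 cells was not used, so 4 pairs were tested and the sums are small. Ms4a4c, the marker named above, had 595, 696, 616 and 506 CPM in the classical cells of days 0, 3, 6 and 9 against 114, 72.2, 58.1 and 146, a difference of 2.65 (SE 0.26, edgeR adjusted p 6.3e-22, higher in 4 of 4). Fn1 had 625, 721, 769 and 721 CPM against 57.0, 12.0, 23.3 and 53.2, but passed the filter through the classical cells alone. Ear2, an eosinophil-type ribonuclease of nonclassical monocytes, had 60.9, 81.1, 49.7 and 52.4 CPM against 1027, 758, 1105 and 572 (-3.82, SE 0.19, edgeR adjusted p 3.09e-83, lower in 4 of 4). With 4 pairs these p-values rest mostly on spread pooled over genes and do not measure each gene's own spread between mice. Over all genes 370 of 5902 were higher (6.27%) and 288 lower (4.88%), and with another scaling (relative log expression) the split turned to 278 higher and 331 lower.

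Identity genes were higher in 10 of 15 and lower in 1, with a median of 0.86 beside 0.05 over all genes. Ly6c2 had 2334, 3661, 2991 and 2990 CPM against 485, 1011, 209 and 891 (2.29) and Lyz2 differed by 0.98, while Clec4a1 was lower (-0.62). All 8 of 8 genes of the nonclassical list were lower (median -2.17). They included Cx3cr1 (-1.26), Nr4a1 (-2.94), Itgal (-2.18), an integrin chain used in patrolling, and Spn (-2.01). Another 5 genes of the list (Eno3, Fabp4, Dusp16, Cd300e and Cd36) had at most 13 UMIs in the classical cells and entered the test through the nonclassical cells alone.

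The 10 genes with the largest fitted rises had 0 UMIs in the nonclassical cells, so their fits have no measured size and their order is no ranking, and all passed the filter through the classical cells alone. The nonclassical cells' 279300 UMIs put the floor of 3 counts at 10.7 CPM over the group. Against that floor Cxcl10, an interferon-induced chemokine, was at least 5.35-fold higher, Galnt9 at least 4.28-fold, Stx3 at least 3.61-fold, Mmadhc at least 3.56-fold and Ly6c1 at least 3.23-fold. Dera was at least 3.02-fold, Myg1 at least 2.68-fold, Gpr183 at least 2.42-fold and Kcne3 and Vcan at least 2.36-fold higher. The largest falls were Bcl2a1b (-5.49) and Bcl2a1d (-5.47), near-identical survival genes that share reads, Fcgr4 (-4.16), Il1b (-4.06), Pltp (-4.01), Ear2, Adgre4 (-3.65), Gngt2 (-3.32), Cd300ld (-3.29) and Stap1 (-3.17), of which Bcl2a1b, Bcl2a1d, Fcgr4, Pltp and Cd300ld passed through the nonclassical cells alone.

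Interferon-stimulated genes were higher in 2 of 4 (median 0.57), and primary granule genes in 2 of 2 (2.94). Class II genes were lower in 4 of 6 and higher in 1 (-1.76), with Cd74 at -1.73 and H2-Aa at -1.93. Cd209a (3.78) and Clec10a (3.95) of the dendritic-like list were higher but passed through the classical cells alone, and Irf8 was higher by 1.25. Inflammatory genes were lower in 7 of 11 (-1.51), adhesion and chemokine receptor genes lower in 6 of 9 and higher in 1. Neutrophil markers, another cell type, were lower in 8 of 8 (-1.71), with S100a8 at 12949, 11140, 14092 and 14724 CPM against 44458, 93931, 14105 and 54134, and of all macrophage markers tested 4 of 5 were lower (C1qa, C1qb, Axl and Hmox1, median -1.59). The macrophage count includes genes that may have passed the filter through the nonclassical cells alone, which favors this direction. The part of neutrophil and macrophage RNA in the other differences, class II among them, was not tested. Without day 3, day 6 or day 9 the genes called fell from 658 to 395, 412 and 410.

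**Figure D3:**
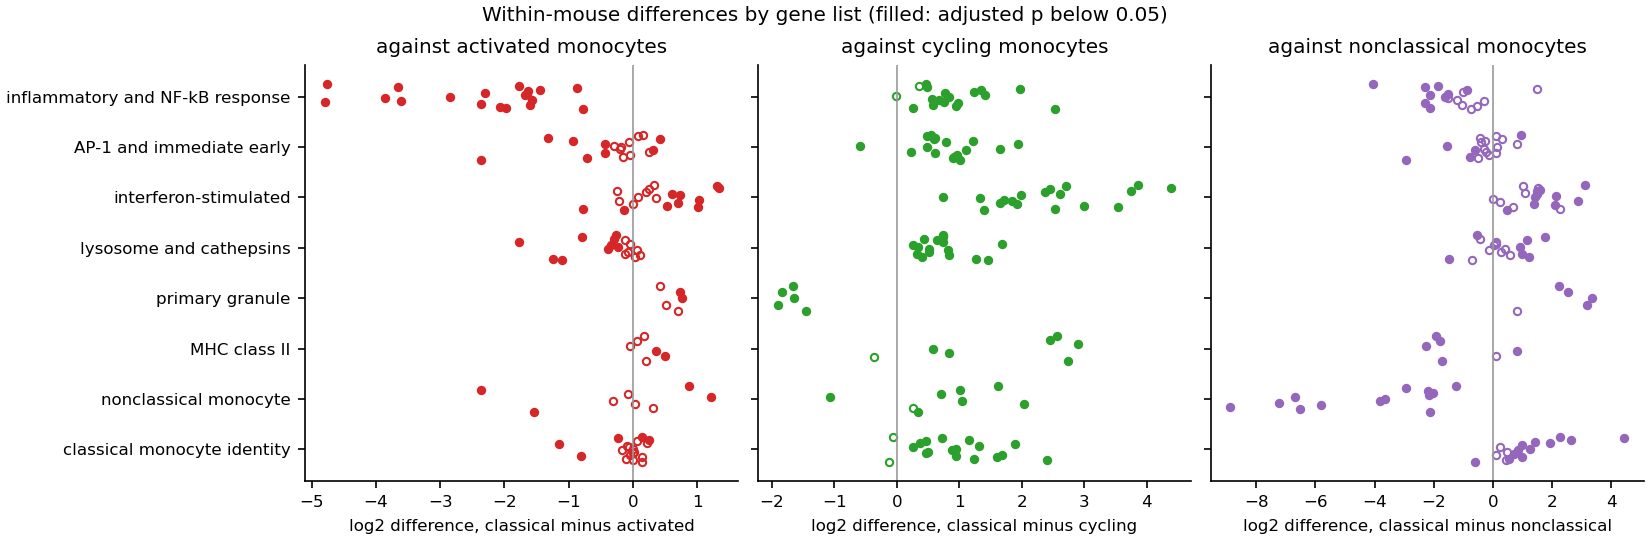
Log2 difference of classical monocytes minus activated (left), cycling (middle) and nonclassical monocytes (right) in the same mice, 1 point for each gene of 8 lists, filled where the edgeR adjusted p was below 0.05; genes at 0 UMIs in nonclassical monocytes are left out on the right. Inflammatory genes lie below 0 on the left and interferon-stimulated genes above 0 in the middle, 15 of 15 and 10 of 10 of those that either group alone would have let pass.

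Among the classical monocytes themselves, 4 small sets of cells stood out by the totals of a gene list, described here with thresholds chosen after the values were seen and on cells thinned to 2000 UMIs (1304 cells). Cells with 10 or more class II UMIs numbered 18, 24, 28, 33 and 20, or 7.59, 9.64, 9.62, 10.6 and 9.22%, and held 79.5 to 84.1% of all class II UMIs. In the median cell of each day the class II total was 1 UMI of 2000.

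The class II-high cells differed in genes that were not used to split them. Cd209a had 689.5 CPM against 42.3 in the other cells, Clec10a, another lectin of dendritic-like cells, 303 against 33.5, and Tmem176b, a membrane channel of dendritic cells, 792 against 127. Flt3, the cytokine receptor that drives dendritic cell development, had 42.7 against 9.63 CPM. These 4 genes and Cx3cr1 and Apoe were higher on 5 of 5 days. Ly6c2 (1287 against 3150 CPM), Fn1 (305 against 759) and Lyz2 (23340 against 31244) were higher on 0 of 5 days, while the monocyte marker Ms4a4c (644 against 593) was higher on 3 and Spi1, a myeloid transcription factor (469.6 against 399), on 4. F13a1 (356 against 663 CPM) and Ccr2 (937 against 760) are genes of the selection rule, which asks for their sum, so a cell low in 1 had to hold the other. Zbtb46, a factor of conventional dendritic cells, had 1 UMI in these cells and 5 in the others (1.29 against 0.587 CPM). Ccr7 had 3 and 16 UMIs (3.88 against 1.88 CPM), so both genes had too few UMIs to compare. Itgax had 11 and 17 UMIs (14.2 against 1.997 CPM) and was higher on 3 of 5 days. Igkc had 295 against 151 CPM and Cd79a 46.6 against 26.0, both higher on 4 of 5 days, and the part of B-lineage RNA was not tested.

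Cells with 10 or more primary granule UMIs were rarer, with 11, 5, 2, 14 and 5, or 4.64, 2.01, 0.687, 4.52 and 2.30%. They were the deepest of the members, with a median of 11220, 20598, 16196, 16242 and 16309 UMIs against 5686, 7510.5, 7507, 6233.5 and 5405. Lyz2 stood at 2643 CPM against 32408, Fn1 at 28.2 against 766 and Ms4a4c at 63.4 against 632. Ly6c2 was close to the others (2819 against 3006, higher on 2 of 5 days) and Irf8 higher (391 against 196, on 4 of 5 days). Stmn1, a tubulin-binding protein of dividing cells, was higher too (838 against 180, on 5 of 5 days). Their number restates the level of the list that chose them. The day 6 interval (0.0833 to 2.46%) overlaps those of days 0 (2.34 to 8.15%), 3 (0.655 to 4.62%) and 12 (0.752 to 5.29%), but not that of day 9 (2.49 to 7.46%).

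Interferon-high cells, with 30 or more UMIs of the interferon-stimulated list, numbered 5, 12, 19, 8 and 11, or 2.11, 4.82, 6.53, 2.58 and 5.07%. Ms4a4c, which is outside that list, had 2031 CPM against 539 in the other cells, Apoe 1740 against 659 and Lyz2 37751 against 30296. Neutrophil-rich cells, with 200 or more UMIs of the neutrophil list, numbered 12, 12, 16, 19 and 12 and held 35.6 to 44.4% of that list's UMIs, with S100a8 at 104068 CPM against 6682 and Ly6c2 at 2318 against 3048. Over all members the median cell had 24, 11, 10, 13 and 19 AP-1 list UMIs of 2000, so the difference between days was in the typical cell. It had 13, 14, 12, 12 and 13 interferon-list UMIs, so the median cell of any later day was within 1 UMI of day 0.

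**Figure D4:**
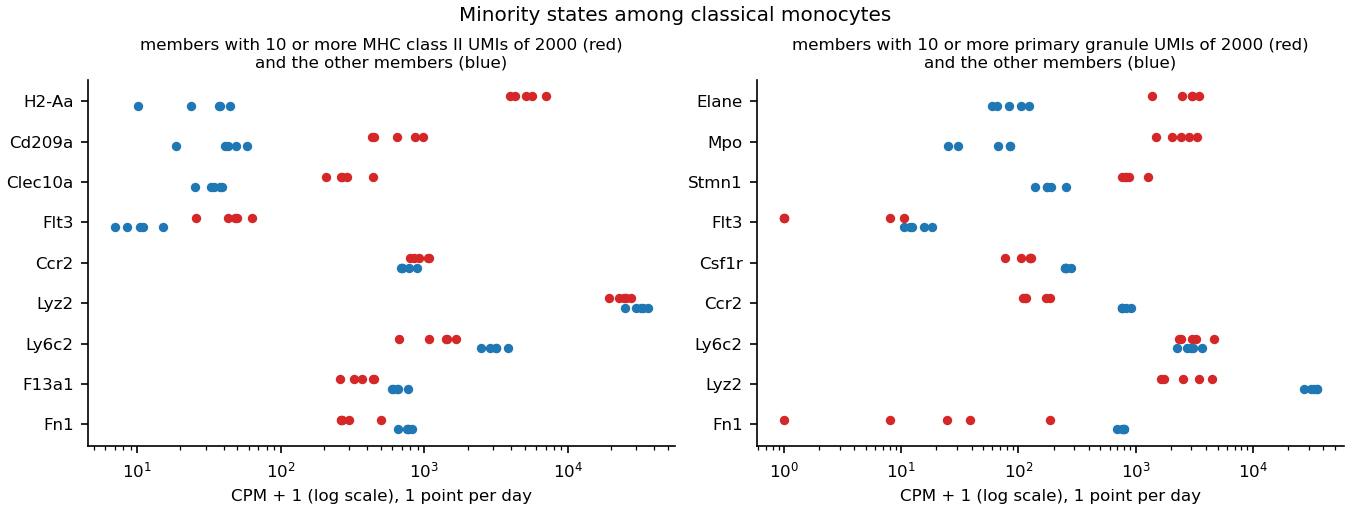
CPM plus 1 on a log axis of 9 genes in members with 10 or more MHC class II UMIs of 2000 (left, red) and with 10 or more primary granule UMIs (right, red), each beside the other members (blue), 1 point per day. H2-Aa, Elane and Mpo were used to split the cells, while Ly6c2 (1287 against 3150 CPM) and Cd209a (689.5 against 42.3) on the left were not.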

How the data were processed

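The deposited matrices hold raw UMI counts per gene and barcode that the authors made with Cell Ranger on mm10, and all barcodes were in them, so cells were chosen here (500 or more UMIs, at most 10% mitochondrial). The members and gene lists were chosen with earlier results of these data known. Between days, UMIs summed over members were compared as CPM with a pseudocount of 5. Within mice, sums were tested with edgeR 4.0.16 (TMM, filterByExpr, library as a block, Benjamini-Hochberg) in R 4.3.3, with DESeq2 1.42.0 as an alternative, after checks on simulated data. The 12 gate genes were left out of all gene counts, a choice made after the design. Genes are named by size: the 8 highest and lowest ratios past the fold for each day, the 10 largest changes each way for each test with at least 100 UMIs and 1 direction in every library, the markers, the 10 most abundant genes, and up to 4 of each list with those called or past the fold. Genes named within the split sets were chosen after their values were seen. Doublets were kept. Scrublet (scanpy 1.11.5) marked 2.52, 0.0411, 0.0497, 0 and 0.0539% of cells, so it did not work at days 3 to 12. Python 3.11.15, scipy 1.17.1 and matplotlib 3.10.9 were used.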

Additional observations from a re-analysis of the deposited data

How the results depend on the processing

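Depth and 1 mouse per day limit the day values. Shares kept their value within the counting interval under 38 of 50 alternatives, day counts within 1.5 times under 34 of 44, and gene ratios in 569 of 616 cases. Of list medians 286 held and 66 moved, and of tested genes 665 held and 32 were weaker. Without the activation limit the inflammatory median at day 12 was -0.68 in place of -0.14, and without granule-rich members, an alternative added later, the primary granule median at day 6 was -0.58 in place of -1.56. Beyond those, the share of classical monocytes at day 0 was 3.31% with the activation limit at 3. It was 5.77, 6.28, 6.27, 5.26 and 4.55% on the 5 days without that limit, 2.37, 2.69, 2.99, 2.53 and 2.12% with the gate on cells thinned to 2000 UMIs, and 5.54% at day 6 with at most 5% mitochondrial UMIs. Genes past the fold at days 3, 6, 9 and 12 were 39, 38, 33 and 11, and with a minimum of 30 UMIs 82 (25 higher and 57 lower), 90 (32 and 58), 80 (36 and 44) and 50 (24 and 26). With members thinned to 2000 UMIs they were 17, 21, 16 and 4, where fewer genes reach the minimum. The day 12 count was 27 without the activation limit (7 higher and 20 lower, 7 of them among the 11) and 7 without the 5% highest Scrublet scores, an alternative added after the data were seen. Gm5483 turned to -0.13 at day 3 and -0.19 at day 12 once neutrophil-rich members were left out, also added later. Genes called against activated monocytes were 1454 with edgeR and 800 with DESeq2, and 658 and 364 against nonclassical monocytes, where 370 higher and 288 lower became 117 and 247 with DESeq2 and 614 and 232 without the expression filter. Leaving out 1 library gave 1031 to 1351 against activated, 3390 to 3856 against cycling and 395 to 608 against nonclassical monocytes. The causes were not tested.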
